A study of Mus musculus with 4 samples.

Results

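Cells make the second messengers cAMP and cGMP with cyclases, destroy them with phosphodiesterases, and read them with protein kinases, and the genes described here are the ones that encode this machinery. They were taken by symbol: adenylyl cyclases (Adcy followed by a number), guanylyl cyclases (Gucy1 and Gucy2), phosphodiesterases (Pde, a number and a letter), the catalytic and regulatory subunits of protein kinase A (Prkaca, Prkacb, Prkar) and the cGMP-dependent kinases (Prkg1, Prkg2), provided that the gene was listed in the count tables of all 4 libraries. Of 20136 genes in the tables, 49 had a matching symbol and 40 were in every table: 9 adenylyl cyclases, 5 guanylyl cyclases, 18 phosphodiesterases, 2 catalytic and 4 regulatory subunits of protein kinase A, and 2 cGMP-dependent kinases. The other 9 (Adcy10, Gucy1b2, Gucy2c, Gucy2g, Pde4c, Pde6a, Pde6b, Pde6g, Pde6h) had 2 to 11 unique molecular identifiers (UMIs) each and are not described further. Pde6d is included by its symbol, although its product is a carrier of lipid-modified proteins. The tables use the older symbols Gucy1a3 and Gucy1b3 for the soluble guanylyl cyclase subunits now named Gucy1a1 and Gucy1b1.

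Punches were taken from the BNST (bed nucleus of the stria terminalis), a small forebrain region of the extended amygdala, in untreated male wildtype C57BL/6J mice on a reversed light cycle. Those of 6 mice were pooled for each of 4 Drop-seq libraries, 24 mice in all, and Drop-seq tags the 3′ end of each transcript with a cell barcode and a UMI. There was no treatment and no second group, so the comparisons are between kinds of cells inside the same libraries. Library entered the main tests as a block, so p-values measure how steady a difference between kinds of cells was over 4 pools. Each pool may mix animals that differ.

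As background, the membrane-bound adenylyl cyclases make cAMP under the control of G proteins: Gs and the olfactory-type Golf raise it and Gi lowers it. Soluble guanylyl cyclase, a pair of one alpha and one beta subunit, makes cGMP when nitric oxide binds its haem. The phosphodiesterases differ in what they cleave: the Pde1 enzymes are switched on by calcium and calmodulin and take both nucleotides, Pde4, Pde7 and Pde8 take cAMP, Pde5 and Pde9 take cGMP, and Pde2, Pde3, Pde10 and Pde11 take both. Protein kinase A is held inactive by its regulatory subunits until cAMP releases the catalytic ones. In the forebrain this pathway is best known from striatal spiny projection neurons, where dopamine and adenosine receptors act through Golf, Adcy5 and protein kinase A, and where Pde10a and Pde1b are standard markers.

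The 4 tables held 10200 barcodes and 14018026 UMIs. After filters on genes per cell, mitochondrial share and doublets, 4181 cells remained (1281, 889, 837 and 1174 in libraries 1 to 4) with 2119143 to 4842995 UMIs per library and a median of 1849 per cell. Of the barcodes in the tables, 11 were shared between libraries, and none of the kept cells shared one. Cells were assigned to classes by UMIs of marker genes that are not members: 2155 neurons, 875 oligodendrocytes, 369 astrocytes, 185 oligodendrocyte precursors, 81 vascular cells and 11 microglia, with 505 left without a class. Of the neurons, 1841 carried GABA markers without glutamate markers and 71 were glutamatergic. The summed neuron markers lay at 6003 to 6479 CPM (UMIs scaled to the same library total) in the neuron gate, 84.6 to 131 CPM in oligodendrocytes, 106 to 264 in astrocytes, 364 to 621 in precursors and 87.7 to 612 in vascular cells. The oligodendrocyte panel stood at 130606 to 150440 CPM in oligodendrocytes, at 5591 to 16718 CPM in precursors, where all 9 of its markers had UMIs, and at 504 to 5684 CPM in vascular cells, where Mog, Opalin and Ugt8a were at 0. The part of neuronal and oligodendrocyte RNA in the levels of the small gates was not tested. Levels below are CPM of the summed UMIs of a class in 1 library, listed in the order of libraries 1 to 4. They are not divided by transcript length, so a gene is compared between classes and not with other genes. Each gene's place is given on GRCm38 from the GENCODE vM21 annotation.

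By family, neurons stood above the other classes in the subunits of protein kinase A, and the order of the other families depended on the class. The 2 catalytic subunits summed to 1059 ± 114 CPM in neurons (SD, n = 4 libraries here and below), 398 ± 56.8 in oligodendrocytes, 244 ± 81.8 in vascular cells, 177 ± 66.7 in precursors and 102 ± 25.5 in astrocytes. The 4 regulatory subunits summed to 1459 ± 101 CPM in neurons, 609 ± 68.2 in vascular cells, 439 ± 139 in precursors, 266 ± 42.5 in oligodendrocytes and 254 ± 32.2 in astrocytes. The phosphodiesterases summed to 1144 ± 74.2 CPM in neurons, 960 ± 193 in precursors, 901 ± 70.4 in oligodendrocytes and 464 ± 47.8 in astrocytes, so that precursors overlapped neurons in this sum. The guanylyl cyclases were at 261 ± 30 CPM in neurons, at 658 ± 271 in vascular cells and at 15.3 ± 4.11 in oligodendrocytes. Adenylyl cyclases ran from 105 ± 21.1 CPM in oligodendrocytes to 283 ± 94.5 in vascular cells. These sums are a description and were not tested.

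**Figure D1:**
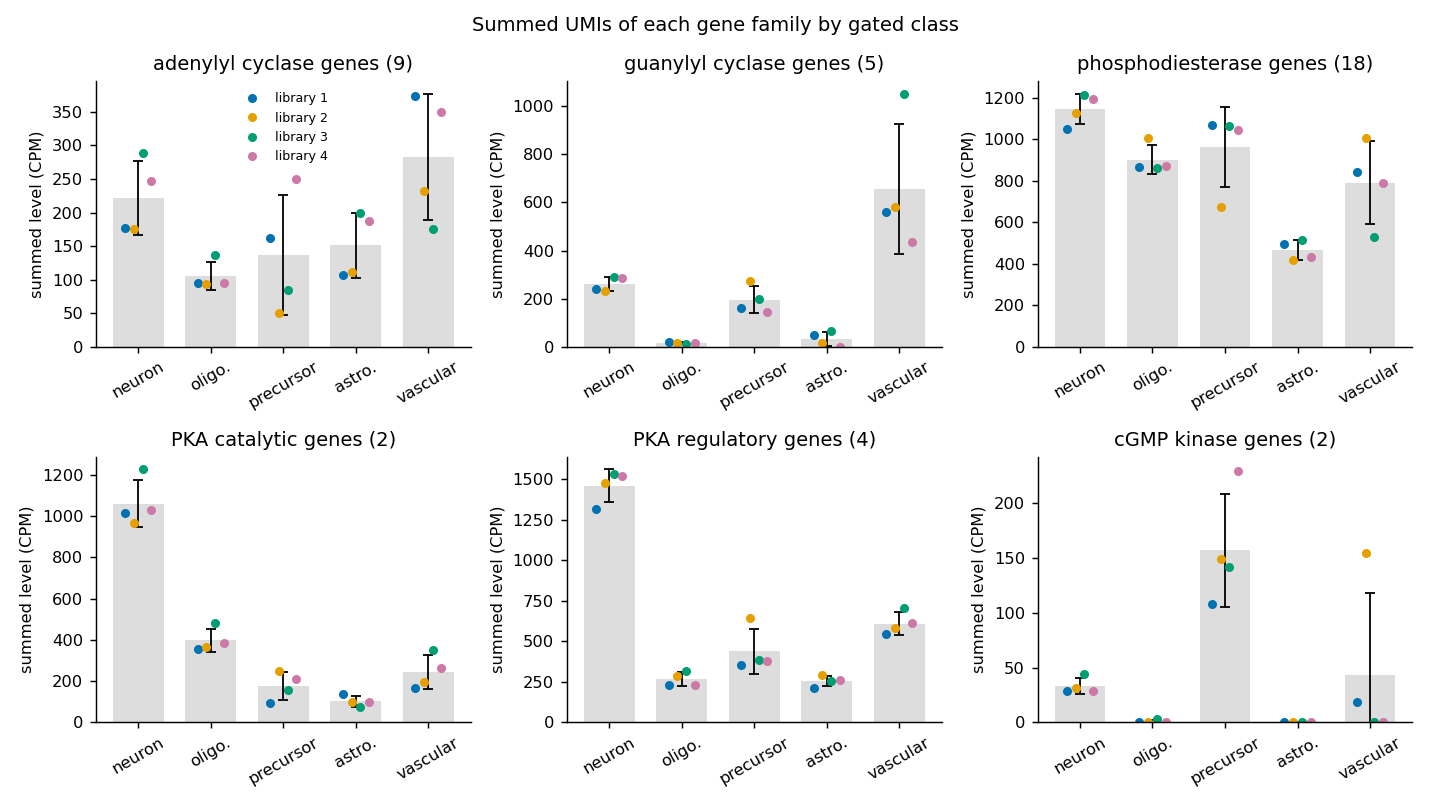
Summed CPM of each of the 6 gene families (panels) by gated class, with bars for the mean of the libraries, error bars for the SD and points for single libraries. Neurons have the highest bars for both sets of protein kinase A subunits, 1059 and 1459 CPM, and vascular cells have the highest bar for guanylyl cyclases, 658 CPM, with the widest spread.

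The number of members with any UMI differed between classes. In neurons 1 member (Adcy4) was at 0, 4 had fewer than 10 UMIs (Gucy2e, Gucy2f, Pde5a, Pde8a) and 35 had 10 or more. Members at 0 numbered 7 in oligodendrocytes, 9 in astrocytes, 5 in precursors, 12 in vascular cells and 32 in the 11 microglia. A count of 0 allows up to 3 counts, which is 0.358 CPM in neurons, 2.05 in oligodendrocytes, 8.82 in astrocytes, 12.9 in precursors, 29.4 in vascular cells and 232 in microglia, so microglia are not described further. These limits and the intervals below cover counting error only.

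**Figure D2:**
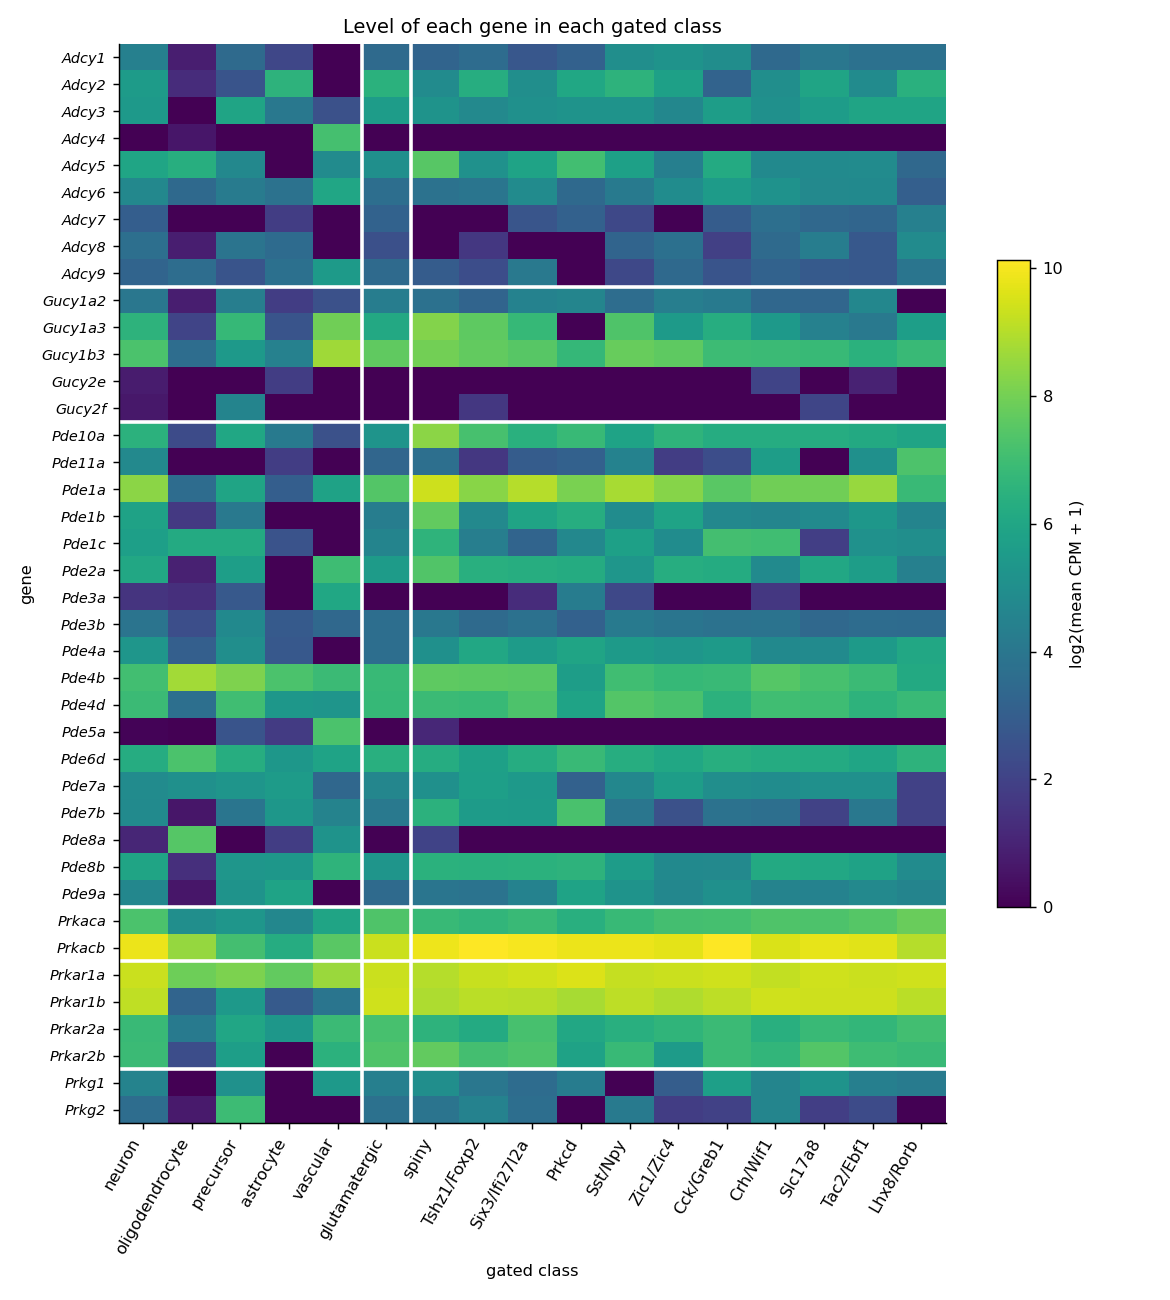
Heat map of the 40 members (rows, by family) in the gated classes and GABAergic subtypes (columns), coloured by log2 of the mean CPM plus 1. Prkacb, Prkar1a and Prkar1b are bright in every neuronal column, Pde8a is bright in oligodendrocytes, where it averaged 174 CPM, and Adcy4 and Pde5a in vascular cells.

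Each non-neuronal class was compared with neurons in 1 model of all 5 classes (edgeR's quasi-likelihood test, library as a block, Benjamini-Hochberg adjustment over the 3340 genes tested), in which only 11 members passed the filter on low counts: Gucy1a3, Gucy1b3, Pde1a, Pde4b, Pde4d, Pde6d, Pde8a, Prkaca, Prkacb, Prkar1a and Prkar1b. Differences in RNA per cell and in the mix of cells inside a gate cannot be told apart in such sums. In oligodendrocytes all 11 passed the threshold of 0.05, 3 higher and 8 lower, where 78.4% of all genes did (32.6% higher, 45.8% lower). In astrocytes 8 of 11 passed, all lower (71.9% of all genes, 40.9% lower). In precursors 7 of 11 passed, 1 higher and 6 lower (65.2%, with 29.3% higher and 35.8% lower), and in vascular cells 8 of 11, 3 higher and 5 lower (58.4%, with 21.2% higher and 37.2% lower). In either direction the shares were near the background in astrocytes (72.7% beside 71.9%) and precursors, and higher in oligodendrocytes (100% beside 78.4%) and vascular cells. Lower calls were a larger share of the members than of all genes in each class, a comparison limited by the filter as given below. Only 11 members were tested, so the single genes carry the description. The members' median log2 fold change was -1.99 in oligodendrocytes, -2.14 in astrocytes, -1.99 in precursors and -0.95 in vascular cells, beside -0.28, -0.37, -0.17 and -0.57 over all genes tested. When each class was fitted with neurons alone, more members passed the filter: 29 of 30 tested differed in oligodendrocytes (6 higher, 23 lower, against 70.0% of all genes, 29.9% higher and 40.1% lower), 21 of 27 in astrocytes (2 and 19, 53.2%), 14 of 30 in precursors (2 and 12, 41.1%) and 12 of 29 in vascular cells (2 and 10, 32.4%). These fits were not repeated without single libraries. The filter keeps a gene that is high in 1 class alone. Pde8a entered through oligodendrocytes, Prkg2 through precursors, and Adcy4 and Pde5a, with 0 and 1 UMIs in neurons, through vascular cells. Adcy4 and Pde5a were the 2 higher calls in vascular cells fitted with neurons alone. In the model of all 5 classes Gucy1a3 entered through vascular cells and precursors. Pde6d entered it through oligodendrocytes and precursors, and neither gene through neurons. Calls of such genes as higher follow in part from the filter. In the fits with neurons alone, members with few or no UMIs in a class entered through neurons and could in practice only be called lower. Examples are Adcy3, Pde11a and Prkg1 in oligodendrocytes, and Prkar2b, Pde2a, Adcy5 and Pde1b in astrocytes. Calls of either kind are no support when set against the shares over all genes. An earlier form of the gate, without a rule on neuronal RNA, left more of it in the vascular and precursor gates (Snap25 at 230 against 29.4 CPM, and at 223 against 133 CPM). With that gate the vascular log2 fold changes were -0.92 for Pde1a, -2.84 for Prkar1b, -1.82 for Prkacb and -0.75 for Prkaca (adjusted p = 0.191), the precursor value of Prkar1b was -3.08 and that of Prkaca -1.63, and Pde4b passed in astrocytes (0.61, adjusted p = 0.0225).

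Among the adenylyl cyclases, Adcy2 was higher in astrocytes than in neurons, and Adcy4 had its UMIs mostly in vascular cells. Adcy2 (chr13:68620043-68999541, minus strand) is a cyclase that Gβγ can stimulate. It was at 87.1, 55.5, 116 and 115 CPM in astrocytes and at 38.6, 51.1, 43.4 and 49.2 in neurons, so the lowest astrocyte library lay just above the highest neuronal one. In the fit of astrocytes with neurons alone the log2 difference was 1.19 (SE 0.35, adjusted p = 0.00151). In oligodendrocytes Adcy2 had 2 UMIs, a pooled level 32.3-fold lower than in neurons (exact 95% counting interval 8.87 to 267), and in precursors 1 UMI, 10.3-fold lower (1.84 to 408). Adcy4 (chr14:55769057-55784095, minus strand) was at 224, 77.5, 87.7 and 175 CPM in vascular cells, from 17 UMIs, and at 0 in 8376827 UMIs of neurons. Against the 3 counts that a 0 allows over the neuron gate, it was at least 464-fold higher in vascular cells.

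Adcy5 (chr16:35154877-35305738, plus strand), the main striatal cyclase, was not limited to neurons. It stood at 63.6, 84.6, 110 and 62.0 CPM in oligodendrocytes and at 43.9, 40.2, 83.1 and 76.6 in neurons, and the classes overlapped. The fit of these classes alone gave a log2 fold change of 0.87 (SE 0.19, adjusted p = 9.66e-06), larger than the plain ratio of the mean CPM values, since edgeR's library scaling factors differ between the classes. In astrocytes Adcy5 had no UMI and was at least 6.38-fold lower than in neurons. Adcy3 (chr12:4133103-4213525, plus strand), a cyclase of neuronal primary cilia, was at 40.8, 32.2, 53.2 and 42.9 CPM in neurons and had no UMI in oligodendrocytes, at least 20.2-fold lower. The remaining cyclases (Adcy1, Adcy6, Adcy7, Adcy8, Adcy9) averaged 7.08 to 25.2 CPM in neurons.

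The soluble guanylyl cyclase was found mainly in neurons, vascular cells and, for its alpha subunit, precursors. Gucy1a3 (chr3:82092427-82145789, minus strand), its alpha subunit, was at 89.8, 73.0, 99.6 and 104 CPM in neurons and at 355, 271, 263 and 87.5 in vascular cells, where library 4 lay inside the neuronal range. Its log2 fold change in vascular cells was 1.51 (SE 0.36, adjusted p = 1.25e-04). The beta subunit Gucy1b3 (chr3:82032006-82074689, minus strand) was at 135, 140, 177 and 159 CPM in neurons and at 187, 310, 790 and 350 in vascular cells, all 4 above the neuronal range, with a log2 fold change of 0.91 (SE 0.33, adjusted p = 0.0118). Each vascular value rests on 30 or 31 UMIs. The call for Gucy1a3 was lost without library 1 (1.08, adjusted p = 0.102), and that for Gucy1b3 without library 2, 3 or 4 (adjusted p = 0.145, 0.0614 and 0.0826). In the fit of vascular cells with neurons alone neither was called (Gucy1a3 1.08, adjusted p = 0.0781, and Gucy1b3 0.62, adjusted p = 0.291), nor with no filter on low counts (0.81 and 0.19, adjusted p = 0.0620 and 0.896). Gucy1b3 was not called with at most 5% mitochondrial UMIs either (0.47, adjusted p = 0.610).

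In oligodendrocytes both subunits were lower than in neurons: Gucy1a3 had 6 UMIs (log2 fold change -4.16, adjusted p = 8.51e-21), 5 of them in library 1, and Gucy1b3 was at 10.3, 12.5, 7.89 and 14.6 CPM (-3.49, adjusted p = 3.26e-27). Without library 1 the Gucy1a3 value was -5.75. In astrocytes Gucy1a3 had 2 UMIs and was 15.5-fold lower by pooled level (4.26 to 128), and Gucy1b3 had 8 UMIs (log2 fold change -2.48, adjusted p = 2.82e-08, and -3.34 without library 1). With a minimum of 800 genes per cell neither astrocyte difference passed (adjusted p = 0.153 and 0.529). Precursors differed from neurons in the beta subunit, at 67.5, 49.7, 14.2 and 41.7 CPM (-1.99, SE 0.41, adjusted p = 4.53e-06). For the alpha subunit they stood at 67.5, 124, 142 and 104 CPM, overlapping neurons (0.04, adjusted p = 0.918). Gucy1a2, the other alpha subunit, averaged 15.4 ± 4.15 CPM in neurons, and the membrane cyclases Gucy2e and Gucy2f, which are retinal forms, had 6 and 5 UMIs there.

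Among the phosphodiesterases, Pde8a and Pde4b stood out in oligodendrocytes. Stretches of RefSeq promoter sequence of these genes are shown because they had the largest log2 fold changes among the members higher in that class. The RefSeq promoter table (GRCm38.p6) held 72 windows for 33 of the 40 members. A pair of short words was searched on both strands of the 250 bases before the start: the core of the cAMP response element, TGACG (reverse CGTCA), and the GC box, GGGCGG (reverse CCGCCC). In the lines below, 5′ to 3′ on the gene's own strand and ending at the base before the start, capitals mark these words. The Pde4b line is the window with the core out of 4, at chr4:102421455-102421554, plus strand, and Pde8a has 1 window, at chr7:81213165-81213264, plus strand.
Pde8a: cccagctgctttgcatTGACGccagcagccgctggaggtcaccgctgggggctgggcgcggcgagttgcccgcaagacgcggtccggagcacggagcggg
Pde4b: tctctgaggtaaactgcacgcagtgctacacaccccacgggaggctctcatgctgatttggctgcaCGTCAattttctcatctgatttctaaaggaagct
The core was present in 15 of the 72 member windows (13 members) and in 17.8% of all 32851 windows of that length. The GC box was present in 31 member windows (24 members) and in 32.7% of all windows. A match describes the letters only. The Pde4b stretch lies inside the annotated gene, before an internal start.

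Pde8a (chr7:81213596-81334533, plus strand), a high-affinity cAMP phosphodiesterase, was at 146, 185, 200 and 164 CPM in oligodendrocytes (174 ± 23.7) and at 0, 1.72, 2.25 and 0.572 CPM in neurons, where it had 7 UMIs in all. No oligodendrocyte library came near a neuronal one. On the log2 scale oligodendrocytes were higher by 7.52 (SE 0.34, adjusted p = 7.49e-63). A UMI of Pde8a was found in 16.3 ± 2.4% of oligodendrocytes thinned to 1000 UMIs (23.2% unthinned, median depth 1372 UMIs) and in 0.0978% of neurons thinned to the same depth (0.415% unthinned, median 3248 UMIs). For this measure 216 oligodendrocytes and 299 neurons with fewer than 1000 UMIs were left out. Other classes had 0 to 3 UMIs of Pde8a: 0 in precursors, 1 in astrocytes and 3 in vascular cells, where the few counts in both classes give no usable fold although the model called it higher.

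Pde4b (chr4:102087543-102607259, plus strand), a rolipram-sensitive cAMP phosphodiesterase, was at 398, 470, 389 and 431 CPM in oligodendrocytes and at 135, 147, 112 and 131 in neurons. Its log2 difference was 1.95 (SE 0.12, adjusted p = 1.61e-41). Precursors lay between them, at 310, 223, 255 and 376 CPM, above every neuronal library (1.00, SE 0.23, adjusted p = 4.27e-05). The precursor call was lost when no filter on low counts was used (0.53, adjusted p = 0.103). Astrocytes, at 164, 153, 158 and 129 CPM, overlapped neurons (0.43, adjusted p = 0.105).

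Pde6d (chr1:86542994-86582629, minus strand) was at 172, 201, 97.3 and 146 CPM in oligodendrocytes and at 86.7, 84.5, 51.7 and 81.7 in neurons, higher in every oligodendrocyte library (1.28, SE 0.17, adjusted p = 2.12e-12). Pde1c and Pde7a were called higher in oligodendrocytes in the fit of those classes alone (0.96 and 0.72, adjusted p = 2.99e-06 and 0.0156), yet their levels overlapped. Pde1c was at 73.9, 65.8, 97.3 and 51.1 CPM against 43.4, 67.2, 50.2 and 45.1 in neurons, and Pde7a averaged 33.0 ± 9.71 against 29.0 ± 9.30. As for Adcy5, both log2 fold changes were larger than the plain ratios of the mean CPM values. Pde9a (chr17:31386210-31476310, plus strand), which cleaves cGMP, was at 58.1, 27.7, 73.6 and 71.8 CPM in astrocytes and 22.5, 16.1, 22.5 and 38.3 in neurons, with library 2 of the astrocytes inside the neuronal range (1.39, SE 0.45, adjusted p = 0.00512, fitted alone). Pde5a (chr3:122728947-122859374, plus strand), the cGMP phosphodiesterase of smooth muscle, was at 112, 155, 87.7 and 262 CPM in vascular cells from 14 UMIs. Neurons held 1 UMI of it, so the pooled ratio was 1148 (interval 175 to 48523).

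Several phosphodiesterases were lower in oligodendrocytes than in neurons, and most of these in astrocytes too, while precursors and vascular cells differed by gene. Pde1a (chr2:79834453-80129458, minus strand), calcium-dependent, was at 331, 359, 326 and 311 CPM in neurons and at 6.16, 15.7, 18.4 and 3.65 in oligodendrocytes (-4.62, SE 0.25, adjusted p = 3.76e-51). It had 2 UMIs in astrocytes, 56.5-fold lower by pooled level (15.6 to 467). In precursors it was at 40.5, 49.7, 84.9 and 62.6 CPM (-2.62, SE 0.32, adjusted p = 4.72e-14), and in vascular cells it had 5 UMIs (-2.91, adjusted p = 3.44e-08, -2.30 without library 1 and -4.02 without library 2). Pde4d was at 98.3, 125, 141 and 106 CPM in neurons and at 8.21, 12.5, 15.8 and 10.9 in oligodendrocytes (-3.03, SE 0.30, adjusted p = 4.85e-20), and in astrocytes it was at 38.7, 13.9, 52.5 and 57.4 (-1.30, adjusted p = 0.00134). Neither precursors nor vascular cells passed the test for Pde4d (0.10 and -1.11, adjusted p = 0.793 and 0.0858).

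By counts in oligodendrocytes, Pde2a was 91.9-fold lower than in neurons (16.4 to 3637), Pde8b 42.8-fold (11.8 to 354) and Pde1b 25.2-fold (8.55 to 123), and Pde11a, with no UMI, was at least 11.6-fold lower. In astrocytes Pde2a and Pde1b had no UMI and were at least 7.14-fold and 5.86-fold lower. Pde10a, at 75.5, 78.1, 112 and 96.6 CPM in neurons, had 6 UMIs in oligodendrocytes and 6 in astrocytes. Pde10a and Pde2a averaged 64.0 and 50.5 CPM in precursors, and Pde8b 39.6 in precursors, 39.6 in astrocytes and 94.4 in vascular cells. None of these was called in the fits with neurons alone (adjusted p = 0.178 to 0.891). Those fits called Pde1b and Pde11a lower in precursors (adjusted p = 0.0130 and 0.00471) and Pde10a lower in vascular cells (0.00797). Pde2a was at 261, 155, 0 and 87.5 CPM in vascular cells, a spread that takes in the neuronal 51.3 to 85.7.

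Protein kinase A differed in both its catalytic and its regulatory subunits. Prkacb (chr3:146729574-146812990, minus strand), the beta catalytic subunit, was at 895, 819, 1059 and 859 CPM in neurons and at 334, 335, 439 and 358 in oligodendrocytes (-1.04, SE 0.13, adjusted p = 2.77e-14). It was lower still relative to neurons in astrocytes (-3.42), precursors (-2.99) and vascular cells (-2.84), with adjusted p-values of 2.64e-33, 7.34e-28 and 1.91e-15. Prkaca, the alpha catalytic subunit, averaged 152 ± 22.1 CPM in neurons and was lower in oligodendrocytes (-1.99), astrocytes (-2.14, and -3.36 without library 1), precursors (-2.28) and vascular cells (-1.22, adjusted p = 0.0380, lost without library 1 at 0.0663, with DESeq2 at 0.0890 and with its size factors at 0.0549).

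Prkar1a (chr11:109649405-109669656, plus strand), the widely expressed type I regulatory subunit, was at 595, 637, 692 and 658 CPM in neurons and at 201, 266, 276 and 204 in oligodendrocytes. It was lower in each of the other classes, by -1.17 in oligodendrocytes, -1.48 in astrocytes, -1.42 in precursors and -0.95 in vascular cells on the log2 scale, with adjusted p-values of 1.42e-16, 2.5e-12, 8.94e-11 and 7.06e-04. The vascular call was lost with at most 5% mitochondrial UMIs (adjusted p = 0.0846). Prkar1b (chr5:139017306-139150001, minus strand), the neural type I subunit, was at 498, 611, 564 and 638 CPM in neurons and at 4.10, 9.41, 10.5 and 10.9 in oligodendrocytes (-5.80, SE 0.24, adjusted p = 1.46e-70). It had 2 UMIs in astrocytes, 95.5-fold lower by pooled level (26.4 to 788), and 2 in vascular cells, 28.7-fold lower (7.93 to 237). In precursors it was at 13.5, 99.3, 56.6 and 0 CPM (-4.03, adjusted p = 1.33e-27, and -4.66 without library 2). Prkar2b, the type II beta subunit of the forebrain, averaged 121 ± 15.7 CPM in neurons, had no UMI in astrocytes and was at least 13.2-fold lower there.

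The UMIs of the regulatory subunits were also expressed as shares of their sum. Prkar1a made up 44.3 ± 1.10% of the regulatory subunit UMIs in neurons and 88.9 ± 2.51% in oligodendrocytes, and Prkar1b made up 39.6 ± 2.62% and 3.28 ± 1.22%. In astrocytes Prkar1a made up 80.7 ± 13.0% of only 85 UMIs. Prkacb made up 85.6 ± 1.94% of the catalytic UMIs in neurons and 92.2 ± 1.11% in oligodendrocytes. These shares compare UMIs of genes with different transcript lengths within a class, and the differences in share were not tested. The RefSeq stretch before Prkar1a is shown because it is the only member window, among the 72, with the whole palindromic element TGACGTCA, which 1.55% of all windows hold. It is 1 of 6 windows of the gene, at chr11:109650849-109650948 on the plus strand, with the element and a GC box in capitals. This stretch lies inside the annotated gene, before an internal start.
Prkar1a: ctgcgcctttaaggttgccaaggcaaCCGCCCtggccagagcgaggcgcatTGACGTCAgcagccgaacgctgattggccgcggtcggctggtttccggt

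The cGMP-dependent kinases were low outside a few gates. Prkg1 was at 18.9, 21.8, 26.9 and 20.6 CPM in neurons, with no UMI in oligodendrocytes (at least 10.3-fold lower) or astrocytes (at least 2.4-fold lower). Prkg2 (chr5:98929773-99037351, minus strand), a membrane-anchored kinase, was at 94.5, 124, 127 and 146 CPM in precursors from 28 UMIs, and at 10.1, 9.77, 17.2 and 8.0 in neurons. All precursor libraries lay above all neuronal ones, and the log2 fold change in the fit of precursors and neurons alone was 3.17 (SE 0.45, adjusted p = 1.63e-09). Oligodendrocytes held 1 UMI of Prkg2 and astrocytes none.

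The neurons were then divided by small sets of subtype markers. Of the 1841 GABAergic neurons, 895 fell into 1 of 11 gates and 946 into none. The gates are named here by their markers: Cck/Greb1 (117 cells), spiny (markers including Ppp1r1b and Rgs9, 116), Sst/Npy (106), Six3/Ifi27l2a (92), Tac2/Ebf1 (90), Tshz1/Foxp2 (78), Crh/Wif1 (77), Slc17a8 (70), Lhx8/Rorb (59), Zic1/Zic4 (57) and Prkcd (33). Median depths ran from 2268 to 6026 UMIs per cell. Each gate was compared with the GABAergic neurons of the other gates in the same libraries, so the comparisons share cells. A gate that is high in a gene raises the comparator of the rest, so a lower call need not set a gate apart. Tac2/Ebf1 and Lhx8/Rorb had enough cells in libraries 1, 2 and 4 only, and Prkcd in libraries 2 and 4 only, which leaves its levels without a test.

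In a test across all 11 gates at once, 16 of the 20 members tested differed between gates, where 29.7% of 4108 genes did. Pde4d, Pde6d, Prkar1a and Prkar2a did not pass (adjusted p = 0.135, 0.687, 0.407 and 0.194). In the 10 single comparisons 29 members were tested in at least 1, 17 were called in at least 1, and there were 36 calls. Of these, 10 were in the spiny gate and 26 in the 9 other gates together. The 11 members tested in none were Adcy4, Adcy7, Adcy8, Adcy9, Gucy2e, Gucy2f, Pde3a, Pde3b, Pde5a, Pde8a and Prkg2. DESeq2 made 10 calls in the 9 other gates together, against 26 with edgeR. It did not call Prkg1, Pde1b and Pde8b in Cck/Greb1, Gucy1b3 in Tac2/Ebf1, or Adcy5, Pde2a, Pde4b and Prkaca in Lhx8/Rorb. Nor did it call Gucy1a3 in Tshz1/Foxp2, Sst/Npy and Crh/Wif1, or Pde1c in Crh/Wif1 and Six3/Ifi27l2a. Also without a DESeq2 call were Pde1a in Six3/Ifi27l2a, Adcy2 in Sst/Npy and Prkar2b in Zic1/Zic4.

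The spiny gate held the most member calls. Of 24 members tested, 10 were higher than in other gated GABAergic neurons and none was lower, where 10.5% of all 7093 genes passed with 5.85% higher and 4.65% lower. The members' median log2 fold change was 0.53, beside -0.02 over all genes. The markers of the gate include Ppp1r1b and Rgs9, which are themselves striatal genes of dopamine and G protein signalling. Other genes of spiny neurons in it were Penk at 2952 CPM, Tac1 at 405, Drd1a at 103, Adora2a at 14.2 and Drd2 at 6.46. Penk was at 6157 CPM in library 4 and at 1213 to 2414 in the others, and Adora2a and Drd2 had 6 and 3 UMIs. The means of Penk, Adora2a and Drd2 were the highest of the 11 gates. Tac1 was higher in Cck/Greb1 (748 CPM) and Sst/Npy (418), and Drd1a was nearly as high in Slc17a8 (98.9). Punches of the BNST border the striatum, and whether these cells lay inside or outside the nucleus was not tested.

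Stretches of 150 bases before the start are shown for the 4 members with the best-known spiny role or the smallest adjusted p, taking the first listed window of each gene. They lie at chr17:8801595-8801744 (Pde10a, plus strand, 1 of 2 windows), chr16:35154714-35154863 (Adcy5, plus, the only window), chr15:103502884-103503033 (Pde1b, plus, 1 of 3) and chr3:82145651-82145800 (Gucy1a3, minus, 1 of 2), and capitals mark GC boxes.
Pde10a: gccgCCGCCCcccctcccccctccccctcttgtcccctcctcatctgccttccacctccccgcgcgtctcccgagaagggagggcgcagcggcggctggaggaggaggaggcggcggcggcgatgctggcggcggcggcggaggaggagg
Adcy5: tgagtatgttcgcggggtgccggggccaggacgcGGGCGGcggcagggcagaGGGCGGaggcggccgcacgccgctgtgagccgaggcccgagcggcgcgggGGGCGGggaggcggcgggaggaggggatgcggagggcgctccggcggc
Pde1b: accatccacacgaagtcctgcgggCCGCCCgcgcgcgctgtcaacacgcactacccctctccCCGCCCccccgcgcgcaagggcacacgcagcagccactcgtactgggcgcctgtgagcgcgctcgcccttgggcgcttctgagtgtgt
Gucy1a3: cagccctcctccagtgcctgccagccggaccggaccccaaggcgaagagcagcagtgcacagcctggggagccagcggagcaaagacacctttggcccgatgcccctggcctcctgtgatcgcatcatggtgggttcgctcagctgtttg
The Pde10a stretch lies inside the annotated gene, before an internal start. None of the 4 stretches holds the core TGACG, and the Gucy1a3 stretch holds neither word, while its G and C content is 65.3% against 82% for Adcy5.

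In the spiny gate the cAMP-making Adcy5 was at 135, 67.8, 264 and 252 CPM, and other gated GABAergic neurons were at 35.8, 30.9, 71.1 and 53.5. It was higher in each library, although library 2 of the spiny gate lay below library 3 of the others. On the log2 scale the spiny gate was higher by 1.91 (SE 0.24, adjusted p = 3.63e-08). The cGMP-making subunit Gucy1a3 was at 221, 325, 264 and 420 CPM against 78.4, 56.9, 90.6 and 74.8, with no overlap (1.95, SE 0.20, adjusted p = 9.20e-11). Its partner Gucy1b3 was at 212, 203, 239 and 336 CPM against 124, 130, 165 and 147 (0.81, SE 0.18, adjusted p = 8.46e-04).

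Of the phosphodiesterases, Pde1b (chr15:103503034-103530052, plus strand), the calcium-dependent form of the striatum, was at 96.3, 108, 327 and 305 CPM in the spiny gate and at 36.4, 23.5, 34.9 and 45.4 elsewhere. All 4 spiny libraries were above the others, with libraries 3 and 4 well above libraries 1 and 2. Its log2 fold change of 2.37 (SE 0.27, adjusted p = 1.75e-09) was the largest of the members. Pde10a (chr17:8525372-8986648, plus strand), which hydrolyses both nucleotides, was at 207, 217, 553 and 336 CPM against 74.7, 81.7, 83.6 and 74.8 (1.95, SE 0.20, adjusted p = 1.00e-10). Pde7b (chr10:20398004-20725078, minus strand), specific for cAMP, was at 57.8, 94.9, 138 and 73.5 CPM against 14.4, 23.5, 33.5 and 24.1 (1.92, SE 0.35, adjusted p = 6.65e-05). For both genes the spiny gate and the other gates did not overlap. Pde1b, Gucy1a3, Pde10a, Pde7b and Adcy5 kept their calls under all 13 alternatives tried.

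Smaller differences were found for 4 further genes. Pde2a, which cGMP activates, was at 96.3, 136, 138 and 294 CPM against 46.4, 52.0, 80.9 and 57.5 (1.43, SE 0.26, adjusted p = 4.11e-05). Pde1a was at 655, 868, 641 and 441 CPM against 296, 316, 332 and 285 (1.07, SE 0.13, adjusted p = 6.76e-09), its highest mean among the 11 gates. Pde1c was higher in 3 of 4 libraries, at 168, 13.6, 101 and 94.6 CPM against 45.2, 78.0, 48.8 and 52.1 (1.05, SE 0.31, adjusted p = 0.0183), and library 2 went the other way. That call was lost without library 1, 3 or 4 (adjusted p = 0.850, 0.114 and 0.12), with a value of 0.26 without library 1, and DESeq2 did not make it (0.459). Prkar2b was at 154, 231, 251 and 189 CPM against 102, 119, 128 and 128 (0.74, SE 0.19, adjusted p = 0.00612), a call lost without library 1 or 3 (0.0512 and 0.0573), with at most 5% mitochondrial UMIs (0.0773) and with no filter on low counts (0.0715). It made up 16.0 ± 2.98% of the regulatory UMIs of the gate against 8.25 ± 0.671% in all neurons.

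With cells thinned to 1000 UMIs, 23.6 ± 7.68% of spiny-gate cells had a UMI of Pde10a (49.6% unthinned), 21.6% had 1 of Gucy1a3 (40.3% unthinned), 19.1% of Pde1b (43.0%) and 17.8% of Adcy5 (41.7%), over 113 cells. Among oligodendrocytes thinned to the same depth the share for Pde10a was 0.311% (0.678% unthinned), with median depths of 3427 and 1372 UMIs. The catalytic subunits of protein kinase A, summed, were at 1043 ± 116 CPM in the spiny gate and 1059 ± 114 in all neurons, and the phosphodiesterases at 2132 ± 254 and 1144 ± 74.2.

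**Figure D3:**
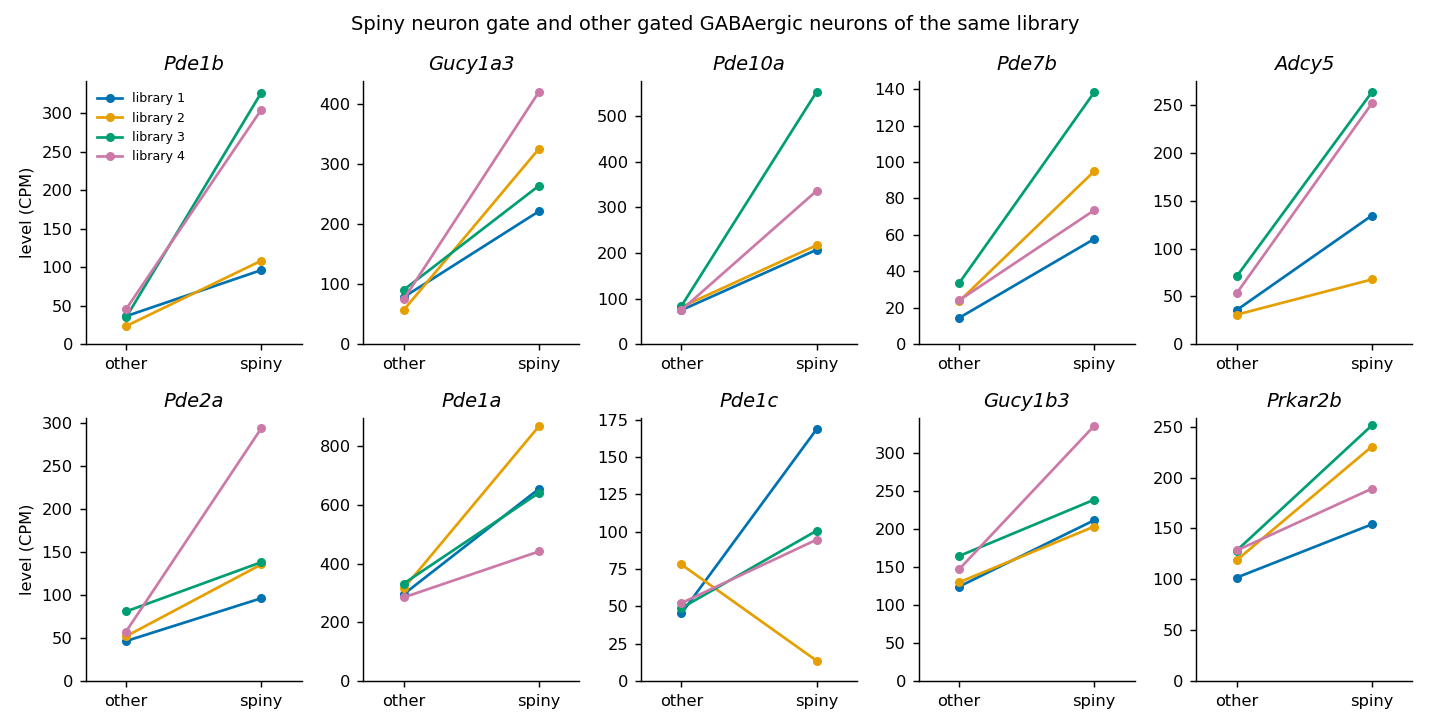
CPM of the 10 members called in the spiny gate, each line joining other gated GABAergic neurons to spiny-gate neurons of the same library. All lines rise for 9 genes, and for Pde1c the line of library 2 falls from 78.0 to 13.6 CPM.

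The Cck/Greb1 gate had 7 calls among 26 members tested, 3 higher and 4 lower (6.65% of all genes passed, 3.56% higher and 3.09% lower). Adcy2 was at 6.89, 10.5, 16.4 and 0 CPM against 43.7, 69.9, 54.3 and 40.8 in other gates, without overlap (-2.39, SE 0.45, adjusted p = 1.72e-04). Pde1a was at 227, 179, 241 and 102 CPM against 358, 384, 416 and 332 (-0.89, SE 0.14, adjusted p = 8.72e-06). Pde1c, at 93.0, 232, 94.1 and 120 CPM against 52.9, 53.4, 36.2 and 47.6, was higher in every library (1.36, SE 0.23, adjusted p = 3.59e-05), and was not called with at most 5% mitochondrial UMIs (1.04, adjusted p = 0.104). Prkacb was at 1158, 1044, 1285 and 999 CPM against 868, 839, 1005 and 779 (0.38, SE 0.08, adjusted p = 0.00157), higher in each library but overlapping, and the fit without the library block did not call it (adjusted p = 0.368). The other calls did not pass in every fit with a library left out, with log2 fold changes of like size. Prkg1, at 31.0, 52.7, 49.1 and 74.0 CPM against 16.5, 17.8, 25.3 and 15.0 (1.33, adjusted p = 0.0175), was not called without library 2 or 4 (1.27 and 1.09, adjusted p = 0.0761 and 0.196). Pde1b (-1.37, adjusted p = 0.00599) was not called without library 1 or 3 (-1.31 and -1.17, adjusted p = 0.0641 and 0.175). Nor was Pde8b (-1.07, adjusted p = 0.0236) without library 2, 3 or 4 (-0.92, -1.23 and -0.92, adjusted p = 0.0847, 0.111 and 0.125). For Pde1b the comparator included the spiny gate, at a mean of 209 CPM. Its Cck/Greb1 mean, 25.3, was near Lhx8/Rorb (22.9), Crh/Wif1 (23.4), Tshz1/Foxp2 (26.6), Slc17a8 (27.8) and Sst/Npy (29.4). It was below Tac2/Ebf1 (39.6), Zic1/Zic4 (57.8), Six3/Ifi27l2a (59.8) and Prkcd (78.6).

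The Lhx8/Rorb gate also had 7 calls, of 22 members tested, 2 higher and 5 lower (8.88% of all genes passed, 3.73% higher and 5.15% lower). Pde11a (chr2:75989141-76338774, minus strand), which cleaves both nucleotides and is rare in most of the brain, was at 78.4, 51.9 and 344 CPM in libraries 1, 2 and 4 against 12.6, 10.4 and 21.9 in other gates. Its log2 difference was 3.13 (SE 0.42, adjusted p = 7.34e-12), and 2.48 (adjusted p = 1.22e-04) without library 4. It was found in 12.1% of thinned cells of the gate (34.8% unthinned) and in no oligodendrocyte. Pde1a was at 121, 60.5 and 164 CPM against 355, 407 and 314 (-1.75, SE 0.22, adjusted p = 1.25e-12), and Prkacb at 549, 536 and 463 CPM against 945, 910 and 837 (-0.80, SE 0.12, adjusted p = 8.57e-09), its lowest mean of the 11 gates. These groups did not overlap. Prkaca moved the other way, at 178, 190 and 299 CPM against 123, 120 and 149 (0.70, adjusted p = 0.0260), a call lost without any one of libraries 1, 2 and 4 (0.114, 0.134 and 0.194).

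Adcy5 had 3 UMIs in the Lhx8/Rorb gate, 5.91-fold lower by pooled level (1.99 to 28.9). Its call was lost without library 2 (adjusted p = 0.0736), with DESeq2 (0.230) and with at most 5% mitochondrial UMIs (0.0617). Pde2a, with 5 UMIs (-2.09, adjusted p = 0.00316), was lost without library 1 or 2 (0.131 and 0.0978) and was -2.95 without library 4. Pde4b, at 85.6, 77.8 and 44.9 CPM against 143, 163 and 131 (-1.01, adjusted p = 0.0117), was lost without library 1, 2 or 4 (0.0604, 0.129 and 0.0508).

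Gucy1a3 was called in more gates than any other member, 6 of 10, in 3 higher and in 3 lower. Beside the spiny gate it was higher in Tshz1/Foxp2 and Sst/Npy and lower in Tac2/Ebf1, Slc17a8 and Crh/Wif1. DESeq2 did not call it in Tshz1/Foxp2, Sst/Npy or Crh/Wif1, and without the library block it was not called in Sst/Npy or Crh/Wif1. In Tshz1/Foxp2 it was at 225, 117, 311 and 124 CPM against 86.0, 77.5, 84.1 and 113 in other gates (1.25, SE 0.26, adjusted p = 9.36e-04), the only call among 23 members (1.23% of all genes, 0.624% higher), and it was lost without library 1 or 3 (0.0560 and 0.318). In Sst/Npy it was at 164, 116, 123 and 250 CPM against 86.8, 76.3, 107 and 98.8 (0.92, SE 0.24, adjusted p = 0.0133), lost without library 1 or 4 (0.303 and 0.291). Both gates lay above the others in every library.

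In Tac2/Ebf1 Gucy1a3 was at 11.8, 8.86 and 27.0 CPM in libraries 1, 2 and 4 against 114, 89.7 and 127 (-2.92, SE 0.36, adjusted p = 5.58e-06), and Gucy1b3 was at 76.6, 88.6 and 99.0 against 148, 143 and 179 (-0.83, adjusted p = 0.0196, lost without library 1 at 0.301). These were the 2 calls among 27 members (2.49% of all genes). The Gucy1b3 call was also lost with at most 5% mitochondrial UMIs (adjusted p = 0.361) and without the library block (0.134). In Slc17a8 Gucy1a3 was at 0, 0, 69.4 and 13.4 CPM against 100, 87.7, 112 and 124 (-2.51, SE 0.49, adjusted p = 1.61e-04), and at -4.63 without library 3, which held 5 of its 6 UMIs. In Crh/Wif1 it was at 50.8, 22.7, 49.7 and 51.0 CPM against 98.0, 85.7, 116 and 120 (-1.23, adjusted p = 0.0286), and leaving out any 1 library ended that call (0.0889 to 0.181). The Crh/Wif1 mean, 43.5 CPM, was close to Zic1/Zic4 (44.5) and Lhx8/Rorb (50.6). Tac2/Ebf1 (15.9), Slc17a8 (20.7) and Prkcd (0) lay below it, and its comparator included the spiny gate, at 308.

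Pde1c (chr6:56069804-56569103, minus strand), the calcium-dependent form with high affinity for both nucleotides, was called in 5 gates, 3 higher and 2 lower. Beside spiny and Cck/Greb1 it was higher in Crh/Wif1, at 110, 249, 69.6 and 89.2 CPM against 55.8, 52.9, 51.7 and 53.6 (1.24, SE 0.30, adjusted p = 0.0107), 1 of 2 calls among 25 members (1.78% of all genes, 0.684% higher). Without library 2 that value was 0.75 (adjusted p = 0.474). In Slc17a8, where 2 of 23 members were called (3.84%), it had 1 UMI, 21.0-fold lower by pooled level (3.73 to 832). In Six3/Ifi27l2a it had 6 UMIs, all in library 1, against 62.1, 80.2, 58.7 and 64.0 CPM in other gates (-2.22, adjusted p = 0.00562), and the call was lost without library 2 or 4 (0.0932 and 0.155) while library 1 left out gave a gate with no UMI.

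The remaining calls were few. In Six3/Ifi27l2a, where 2 of 24 members were called (1.88% of all genes, 0.711% higher and 1.17% lower), Pde1a was at 417, 539 and 373 CPM in libraries 1, 2 and 4 and highest in library 3, against 328, 343, 333 and 293 (0.56, adjusted p = 0.0145), and the call was lost without any 1 library (0.0624 to 0.182). In Sst/Npy, where 2 of 26 were called (3.12% of all genes, 1.69% higher), Adcy2 was at 89.8, 145, 24.5 and 107 CPM against 31.6, 56.6, 43.6 and 27.7, higher in 3 of 4 libraries (1.38, SE 0.33, adjusted p = 0.00337) and lost without library 1 or 4 (0.245 and 0.0547). In Zic1/Zic4 Prkar2b, the single call among 24 members (1.19%), was at 71.3, 18.6, 55.5 and 40.5 CPM against 110, 135, 145 and 141 (-1.39, adjusted p = 0.0386), lost without library 2, 3 or 4 (0.371, 0.193 and 0.207) and at -2.02 without library 1.

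In the order of mean levels over the 11 gates, Gucy1a3 ran from 0 in Prkcd to 308 CPM in spiny, Pde10a from 57.6 in Sst/Npy to 328 in spiny, Adcy5 from 9.74 in Lhx8/Rorb to 180 in spiny, Pde1a from 115 in Lhx8/Rorb to 651 in spiny, and Pde1c from 2.73 in Slc17a8 to 135 in Cck/Greb1. Prkar1a, which did not pass the test across gates, ran only from 515 in spiny to 765 in Prkcd. In the Prkcd gate, set by that gene alone, libraries 2 and 4 gave Pde7b at 93.8 and 202 CPM and Adcy5 at 62.5 and 202 CPM. The Pde7b mean there, 148 CPM, was the highest of the 11 gates, above 91.1 in spiny, and the Adcy5 mean was 132. Gucy1a3 had no UMI in the 113431 of the Prkcd gate in these libraries, at least 3.89-fold lower than in their other gates.

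**Figure D4:**
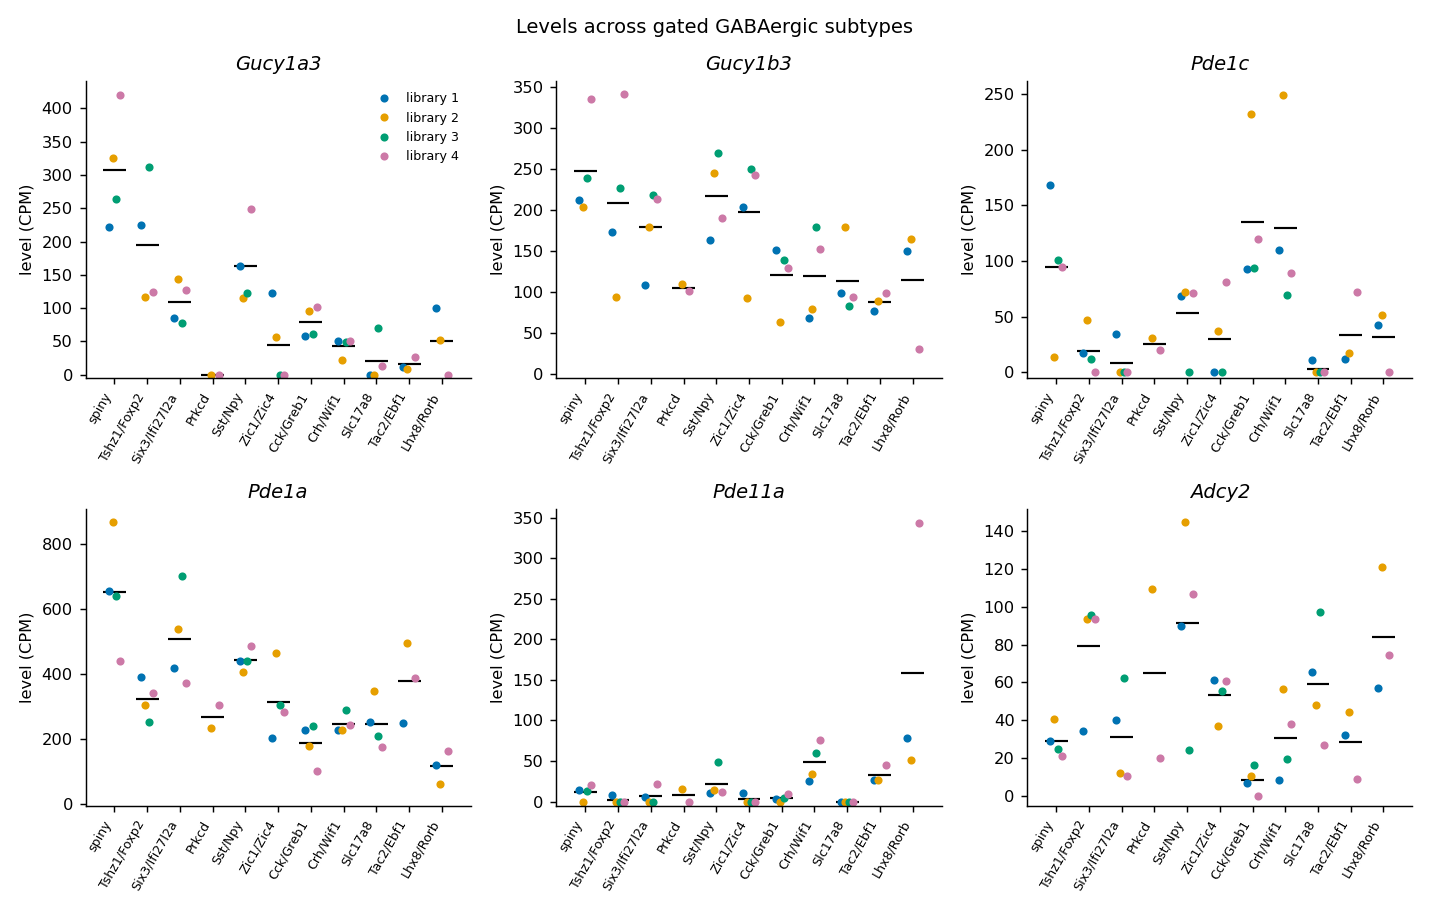
CPM of 6 members in the 11 GABAergic gates, with points for single libraries and short lines for their means. Gucy1a3 is highest in spiny at a mean of 308 CPM and lowest in Prkcd, Slc17a8 and Tac2/Ebf1, and Pde11a stands above the rest in Lhx8/Rorb at 158 CPM with 1 library far up.

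The 71 glutamatergic neurons were compared with GABAergic neurons in libraries 1, 2 and 4. Of 31 members tested, 1 was called lower and none higher, where 1.44% of all genes passed with 0.579% higher and 0.857% lower. Pde1a was at 148, 249 and 110 CPM in glutamatergic neurons against 349, 366 and 323 in GABAergic ones (-1.18, SE 0.25, adjusted p = 4.48e-04). The groups did not overlap, but 41 of the 71 cells came from library 1, and without it the value was -1.10 (adjusted p = 0.227). DESeq2 did not call it either (adjusted p = 0.173).

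For the wider pathway, 48 further genes were listed: G protein subunits, A-kinase anchoring proteins (AKAPs), cAMP-gated exchange factors, inhibitors and targets of protein kinase A, nitric oxide synthase and others. Of the 19 that passed the filter in the model of the 5 classes, 2 were higher and 11 lower in oligodendrocytes, 5 and 9 in astrocytes, 5 and 12 in precursors, and 6 and 8 in vascular cells. These are 68.4%, 73.7%, 89.5% and 73.7% of the genes tested, beside 78.4%, 71.9%, 65.2% and 58.4% of all genes. Gnal, the Golf alpha subunit, averaged 293 CPM in neurons and was lower in oligodendrocytes (-4.63), astrocytes (-4.41, and -5.12 without library 4) and precursors (-2.26). Pkia, an inhibitor of protein kinase A, was lower in oligodendrocytes (-4.72) and astrocytes (-3.70, and -4.59 without library 1), and Arpp21 (-4.53) and the Gs alpha subunit Gnas (-2.36) were lower in oligodendrocytes. Rapgef3, the exchange factor Epac1, moved the other way: it was at 300.0, 194, 221 and 230 CPM in astrocytes and at 12.4, 13.8, 11.2 and 26.9 in neurons (4.13, SE 0.31, adjusted p = 9.09e-31). All astrocyte libraries lay above the neuronal ones. Rapgef3 was higher in precursors too (2.44), as was the anchoring protein Akap13 (2.77), at 148, 124, 113 and 167 CPM against 12.7, 8.62, 32.2 and 21.1. The largest changes left rest on 3 UMIs or fewer and are pooled ratios with exact 95% counting intervals. Gnai1, a Gi alpha subunit, had 1 UMI in astrocytes, 164-fold lower than in neurons (29.4 to 6483), and Pkig had 3 in precursors, 6.79-fold lower (2.31 to 33.0). In vascular cells Arpp21, Gnai1 and Gnal had 1 UMI each, 59.0-fold (10.6 to 2333), 49.3-fold (8.84 to 1947) and 29.4-fold (5.26 to 1160) lower, and Akap6 had none, at least 6.42-fold lower.

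In the spiny gate 6 of 29 pathway genes tested were higher and 2 lower, 27.6% beside 10.5% of all genes. Arpp21, a cAMP-regulated phosphoprotein of spiny neurons, was at 3673, 2617, 3205 and 3488 CPM there (3.51, SE 0.11, adjusted p = 1.28e-30). The anchoring protein Akap5 (2.5), the G protein subunits Gng7 (2.32) and Gnal (1.57), Arpp19 (1.48) and Pde4dip (0.77) were higher as well, the last not without library 2, 3 or 4 (adjusted p = 0.112, 0.282 and 0.195). Nos1, which makes the nitric oxide that activates soluble guanylyl cyclase, and Gnas, the Gs alpha subunit, were lower (-2.78 and -0.35). Nos1 was at -3.39 without library 1, and Gnas was not called without library 3 or 4 (adjusted p = 0.0905 and 0.310). Without the library block neither Gnas nor Pde4dip was called (adjusted p = 0.476 and 0.109). Nos1 had 5 UMIs in the spiny gate, and it was at 307, 101, 441 and 832 CPM in Sst/Npy (3.45, SE 0.24, adjusted p = 5.37e-21), where Arpp21 was lower (-3.27). In the Lhx8/Rorb gate 2 of 30 pathway genes were higher and 8 lower (33.3% beside 8.88% of all genes), among them Arpp21 (-3.17, SE 0.22, adjusted p = 7.46e-44). Gng7 (-2.00, from 4 UMIs) was lost without library 1, 2 or 4 (adjusted p = 0.203, 0.106 and 0.0666), Akap5 (-1.83) without library 1 (0.0690), with -2.56 without library 2, and Akap12 (2.31) without library 4 (1.67, adjusted p = 0.0672). In glutamatergic neurons, where 7.69% of 39 pathway genes were called beside 1.44% of all genes, 1 was higher, Nos1 (2.13), and 2 lower, Akap5 (-2.16, lost without library 1 at 0.239) and Arpp21 (-1.70).

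In the 8 other GABAergic gates 1 to 6 pathway genes were called, 3.70% to 20.7% of those tested, beside 1.19% to 6.65% of all genes. Arpp21 was lower in Cck/Greb1 (-2.10), Tac2/Ebf1 (-1.82), Zic1/Zic4 (-1.04) and Crh/Wif1 (-1.60, and -2.22 without library 2), beside Sst/Npy. Nos1 was lower in Six3/Ifi27l2a (-2.98, and -4.28 without library 1), Tac2/Ebf1 (-2.79, and -2.16 without library 4), Crh/Wif1 (-2.51, and -3.19 without library 4) and Slc17a8 (-1.76), from 4 to 7 UMIs in each. In Slc17a8 that call was lost without library 2 or 4 (adjusted p = 0.0551 and 0.434). The comparators of these lower calls included the spiny gate for Arpp21 and Sst/Npy for Nos1, where these genes were high. Gnas was lower in Cck/Greb1 (-0.81) and Tshz1/Foxp2 (-0.58) and higher in Tac2/Ebf1 (0.57) and Slc17a8 (0.41), the last lost without library 4 (adjusted p = 0.0574). Without the library block the Gnas calls in Tshz1/Foxp2, Tac2/Ebf1 and Slc17a8 were lost (adjusted p = 0.250, 0.121 and 0.437). Gnal was lower in Cck/Greb1 (-0.73), Tac2/Ebf1 (-0.67) and Slc17a8 (-0.65) and higher in Six3/Ifi27l2a (0.62). Its calls were lost in Tac2/Ebf1 without library 4 (adjusted p = 0.135), in Slc17a8 without library 1, 2 or 4 (0.190, 0.0576 and 0.250) and in Six3/Ifi27l2a without library 1 or 4 (0.196 and 0.119). In Six3/Ifi27l2a Gnai1 was lower (-0.73), and not called with at most 5% mitochondrial UMIs (adjusted p = 0.0726) or without the block (0.0883). Akap5 was lower in Cck/Greb1 (-0.98, lost without library 3 at 0.127) and in Crh/Wif1 (-1.08, lost without library 1, 2 or 3 at 0.369, 0.136 and 0.248). Pkib was higher in Crh/Wif1 (1.49, lost without library 1 or 3 at 0.443 and 0.119). In Sst/Npy Arpp19 (-0.68) and Akap9 (-0.45) were lower, and both calls were lost without library 1, 2 or 3, Arpp19's without library 4 as well (adjusted p = 0.0513 to 0.551). DESeq2 did not call Nos1 in Tac2/Ebf1, Slc17a8 and Crh/Wif1, Gnal in Tac2/Ebf1, Slc17a8 and Six3/Ifi27l2a, Akap5 in Cck/Greb1 and Crh/Wif1, Arpp21 and Pkib in Crh/Wif1, or Arpp19 and Akap9 in Sst/Npy (adjusted p = 0.0580 to 0.510).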

How the data were processed

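The 4 libraries were deposited as digital expression tables of UMI counts per gene and cell barcode, 1 table for each pool of 6 mice, and the values are whole-number counts per the file headers and contents. The submitters' processing notes name bcl2fastq 2.18.0.12, Picard 2.2.4, STAR 2.4.2a and the builds mm10 and GRCm38. The annotation and whether counting used strand are not given in the sources used here, so UMIs of a gene and of an overlapping antisense gene cannot be told apart.

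Cells with at least 400 genes and at most 10% mitochondrial UMIs were kept, and 58 barcodes (1.37% of 4239) marked as doublets by Scrublet in scanpy 1.11.5 (expected rate 0.05) were removed. A cell took the class whose marker panel was highest relative to its mean over kept cells, with at least 2 panel UMIs, 2 times the next panel and, for non-neuronal classes, 2 times as many panel UMIs as neuron-panel UMIs. GABAergic neurons had 2 or more UMIs of Gad1, Gad2 or Slc32a1 and none of Slc17a6 or Slc17a7, and glutamatergic neurons had 2 or more UMIs of the latter and more of them than of GABA markers. Subtypes were picked in the same way among 11 marker sets. One marker of the spiny set is not reported here. UMIs were summed per class and library where at least 10 cells were present. Sums were compared with edgeR 4.0.16 in R 4.3.3, using TMM scaling, the filterByExpr filter and a quasi-likelihood F-test in which library was a block, with the standard error taken as the log2 fold change divided by the square root of F and p-values adjusted by Benjamini-Hochberg over all genes tested. A fold against 0 UMIs used a floor of 3 counts over the class, and ratios with 1 to 3 UMIs have exact 95% intervals.

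Library numbers pair the classes by construction, since each library holds all of them, which is where the block comes from. Alternatives were 800 genes per cell, 5% mitochondrial UMIs, doublets kept, a gate of 3 UMIs, DESeq2 1.42.0 and its size factors, no filter, no block, another comparator and each library left out. Full statistics were given for up to 5 members with the highest and 5 with the lowest log2 fold changes among those called in a comparison, and members under 10 UMIs in both arms were given by counts. Of 48 listed pathway genes, up to 4 called per comparison were named by largest change, with all 8 in the spiny gate. The members and gene lists were chosen with earlier results of these data known. The gate was settled after the data were seen. It was revised once, after a first set of member values had been read, by adding the rule on neuron-panel UMIs. The edgeR fits of the classes, of the spiny gate and across subtypes were tested on simulated counts.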

Additional observations from a re-analysis of the deposited data

Results flagged for a closer look

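Among 130 sets of 4 library values with at least 40 UMIs, 6 had 1 library far from the other 3, where chance marks about 1 in 20 sets, or 6.5 of these. In the neuron gate it was library 3 each time: Adcy1 was at 35.9 CPM there and at 13.2 to 16.6 in the others, Pde7b at 43.4 against 21.4 to 24.0, and Pde6d at 51.7 against 81.7 to 86.7. In the Cck/Greb1 gate Pde6d was at 120 CPM in library 4 (13 UMIs) and at 63.3 to 69.6 in the others. In the Slc17a8 gate Pde4b was at 241 CPM in library 4 (18 UMIs) and at 98.2 to 120 in the others. In the Sst/Npy gate Prkar2b was at 49.0 CPM in library 3 (2 UMIs) and at 130 to 143 in the others.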

How the results depend on the processing

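Over 110 named results and 1408 comparisons with an alternative, 1238 kept direction and call, 170 kept direction but lost the call, and none reversed; 63 results kept their call throughout and 47 lost it at least once. The number of members called in oligodendrocytes, 11 as reported, was 21 with a minimum of 800 genes, 7 with at most 5% mitochondrial UMIs, 33 with no filter and 29 with neurons alone. In astrocytes, 8 as reported, it was 24 with no filter and 21 with neurons alone, in precursors (7) it was 15 and 14, and in vascular cells (8) it was 20 with no filter and 3 with at most 5% mitochondrial UMIs. With no filter the median log2 fold change of all genes moved to -0.59 in oligodendrocytes, -0.62 in astrocytes, -0.64 in precursors and -1.12 in vascular cells. For glutamatergic neurons 2 members were called with at most 5% mitochondrial UMIs and 0 with DESeq2 (2 of 31 at an unadjusted p under 0.05) or, in edgeR, without library 1 (2 of 32). The 26 calls summed over the other subtypes (9 gates) became 13 with at most 5% mitochondrial UMIs and 17 with a gate of 3 UMIs, where 7 of the gates could be fitted, 10 with DESeq2 and 14 without the replicate block. The block left the counts of the class comparisons and the glutamatergic count unchanged; without it the spiny count was 8 and the count across subtypes 12.

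Leaving out 1 library gave 8 to 13 calls in oligodendrocytes, 5 to 10 in astrocytes, 6 to 9 in precursors, 5 to 7 in vascular cells, 0 to 1 in glutamatergic neurons, 8 to 11 in the spiny gate, 16 to 21 summed over the other subtypes and 12 to 13 across subtypes. Astrocytes and vascular cells were lowest, at 5, without library 3, and the sum over subtypes, at 16, without library 1. Vascular cells could not be fitted with a minimum of 800 genes, nor glutamatergic neurons with that minimum or with a gate of 3 UMIs. The fits with neurons alone and the first gate were chosen after seeing the data. Depth limits what a 0 shows: 3 UMIs are 29.4 CPM in vascular cells and 0.358 CPM in neurons.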
